A study of Homo sapiens with 4 samples.

Results

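Classical cadherins and their cytoplasmic partners, the catenins, were examined in BJ, a human fibroblast cell line, at 8 genes: CDH1 and CDH3 of epithelia, CDH2 and CDH11 of mesenchymal cells, CDH13, and the catenin genes CTNNA1, CTNNB1 and CTNND1. Members were the ATAC-seq peaks whose summit lay in the body of 1 of these genes or within 50 kb of a transcription start site (TSS) annotated for it by GENCODE. They came to 327 peaks of 215994 in all, 157 in cells expressing KLF4 alone (CTR) and 170 in cells expressing ΔNp63α together with KLF4 (p63). There were 2 samples per group, and both went into the single list of peaks of their group, so no value below carries a spread between replicates and no test between the groups could be run. Per the study's methods, BJ cells with a lentiviral reverse tetracycline transactivator received a retroviral construct for KLF4, alone or fused to ΔNp63α through a self-cleaving peptide, and were given doxycycline for 72 h. Both groups therefore carried the transactivator and KLF4, and replicates were separate inductions of the same polyclonal lines.

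Classical cadherins span the membrane and bind cadherins of the neighbouring cell through calcium-dependent extracellular repeats. Their tails bind p120-catenin (CTNND1), which holds them at the surface, and β-catenin (CTNNB1), which links them through α-catenin (CTNNA1) to actin and is also the co-activator of Wnt signalling. Keratinocytes carry E-cadherin (CDH1) and P-cadherin (CDH3), whereas fibroblasts carry N-cadherin (CDH2) and cadherin-11 (CDH11), and T-cadherin (CDH13) is anchored by a lipid and has no catenin-binding tail. ATAC-seq, in which a transposase cuts accessible DNA, reads where chromatin is open and not how much RNA a gene makes. Since cells were measured in bulk, fewer cells with an open region and less opening per cell cannot be told apart.

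A region was called open at a −log10 q of 10 or more, where q is the false discovery rate of the peak caller. It was called shared when an open region of the other list overlapped it by at least 1 bp, and p63-only or CTR-only otherwise. List-only regions either overlapped a weaker peak of the other list or had no peak there at any −log10 q. Across the genome, 56680 CTR and 62343 p63 regions were open, with a median of 33 reads stacked at the summit (the summit pileup) in both lists and a lowest pileup of 15 reads. The background coverage was 1.18 reads in CTR and 1.13 reads in p63. The promoters of all 8 fibroblast markers examined, among them COL1A1, PDGFRB and DCN, were open in both lists. Of 6 keratinocyte markers, only KRT14 had an open promoter in CTR, and KRT14 and KRT5 had one in p63. Of the endothelial, leukocyte and melanocyte markers, 3 of each, promoters were open in CTR for 1, 2 and 1 and in p63 for 0, 1 and 1. PECAM1 and VWF were closed in both lists, as were MLANA and TYR, whereas PTPRC was open in both, and the part of other cell types in the results below was not tested.

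Sequences of 201 bp around the summit are shown for the regions that the results below turn on, from GRCh38/hg38, plus strand. The first 3 are the member regions of the p63 list that held a site of the p53/p63 family, which is 20 bp long, and of which the C and G of both cores had to match and at most 3 of the other 16 positions could differ. Each held it with 2 mismatches, marked in capitals, and none of them overlapped a peak of the CTR list.
CDH3 upstream, chr16:68605802-68606002: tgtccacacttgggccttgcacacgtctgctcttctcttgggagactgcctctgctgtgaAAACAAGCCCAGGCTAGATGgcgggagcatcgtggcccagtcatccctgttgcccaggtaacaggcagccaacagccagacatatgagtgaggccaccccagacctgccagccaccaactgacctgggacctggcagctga
CTNND1 intron 1, chr11:57788435-57788635: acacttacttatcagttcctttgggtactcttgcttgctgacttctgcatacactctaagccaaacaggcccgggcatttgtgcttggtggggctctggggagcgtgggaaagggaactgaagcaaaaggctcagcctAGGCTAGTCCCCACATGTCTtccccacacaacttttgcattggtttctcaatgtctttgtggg
CDH11 intron 1, below the threshold, chr16:65099658-65099858: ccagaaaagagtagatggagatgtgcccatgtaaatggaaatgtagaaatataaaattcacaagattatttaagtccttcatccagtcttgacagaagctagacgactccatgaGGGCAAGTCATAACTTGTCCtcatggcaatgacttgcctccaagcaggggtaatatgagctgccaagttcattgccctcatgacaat
The other 3 had no such site and are the p63-only regions of highest −log10 q at CDH1 and at CDH13 and the CTR-only region of highest −log10 q at CDH2. Capitals in them mark the AP-1 motif TGANTCA, of which each held 1. The interval named for the first lies between the transcripts of CDH3 and CDH1 that GENCODE names as canonical. It is still inside the CDH3 gene, in a part covered by another transcript.
CDH3 to CDH1 interval, chr16:68707345-68707545: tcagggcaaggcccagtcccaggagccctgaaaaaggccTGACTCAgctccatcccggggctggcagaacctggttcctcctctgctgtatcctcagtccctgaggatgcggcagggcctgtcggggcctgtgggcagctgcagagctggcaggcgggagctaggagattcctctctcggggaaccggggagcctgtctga
CDH13 intron 6, chr16:83365256-83365456: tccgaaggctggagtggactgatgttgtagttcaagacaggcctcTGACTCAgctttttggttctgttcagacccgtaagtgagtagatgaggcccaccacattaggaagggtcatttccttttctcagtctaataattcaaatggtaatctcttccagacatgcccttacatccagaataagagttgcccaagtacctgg
CDH2 intron 2, chr18:28112079-28112279: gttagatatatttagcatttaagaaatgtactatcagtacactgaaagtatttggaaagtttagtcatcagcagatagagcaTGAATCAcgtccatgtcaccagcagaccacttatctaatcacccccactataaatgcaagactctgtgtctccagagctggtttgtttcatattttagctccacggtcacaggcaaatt

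At the 8 genes, 79 CTR and 93 p63 regions were open, of which 65 in each list were shared. The p63-only regions numbered 28, or 30.1% of the open p63 regions (95% Wilson interval 21.7 to 40.1%), against 23.9% over the whole p63 list. The CTR-only regions numbered 14, or 17.7% of the open CTR regions (10.9 to 27.6%), against 16.5% over the whole CTR list. Both background shares lay within the members' intervals. List-only regions were next divided by what the other list held. Of the 93 open p63 regions, 14 had no CTR peak at any −log10 q (15.1%, 9.18 to 23.7%), where 12.0% of all open p63 regions had none, so the share was near the background. These 14 were among the 28 p63-only regions, where 7459 of 14931 in the genome had no CTR peak, and their summit pileup ran from 18 to 48 reads with a median of 24.5. Of the 79 open CTR regions, 1 had no p63 peak (1.27%, 0.224 to 6.83%), where 3.29% of all open CTR regions had none. It was 1 of the 14 CTR-only regions, where 1864 of 9339 in the genome had no p63 peak, and its pileup was 15 reads. The weaker p63 counterparts of the other 13 had a −log10 q of 4.34 to 9.62 with a median of 8.25, and 10 of them reached 7. The weaker CTR counterparts of 14 p63-only regions had a −log10 q of 2.56 to 9.25 with a median of 6.62, and 7 of them reached 7. Just inside and just outside it, member regions had a −log10 q of 10.3 and 9.69 in CTR and of 10.3 and 9.62 in p63.

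**Figure D1:**
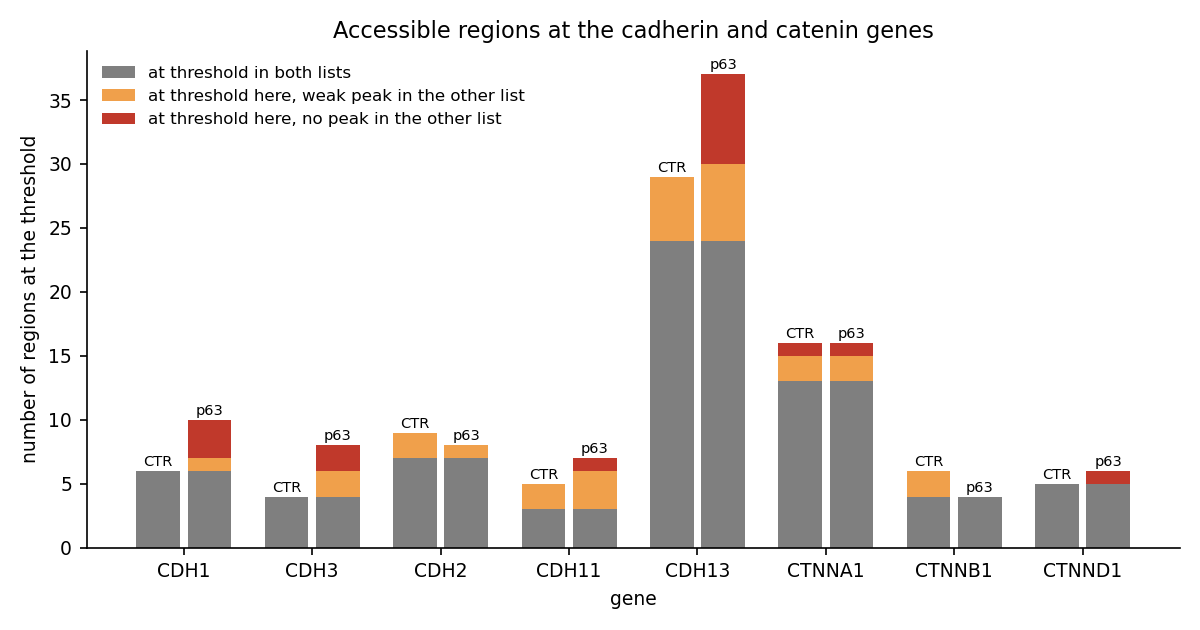
Number of open regions (y axis) at each of the 8 genes (x axis) in the CTR and p63 lists, coloured by whether the other list held an open region, a weaker peak or no peak. CDH1 and CDH3 have no CTR-only region, and CDH13 has 13 p63-only regions. The bars of CTNNA1, CTNNB1 and CTNND1 reach 16, 6 and 5 regions in CTR and 16, 4 and 6 in p63. Regions in the windows of both CDH1 and CDH3 appear at both genes.

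The epithelial pair lie side by side on chromosome 16, CDH3 (ENSG00000062038.15) at 68636189 to 68727468 and CDH1 (ENSG00000039068.20) at 68737292 to 68835537, both on the plus strand. Together they had 9 open regions in CTR and 15 in p63. All 9 CTR regions were shared, so none was CTR-only (Wilson upper limit 29.9%), against 16.5% over the whole CTR list. The other 6 p63 regions were p63-only, 40.0% with an interval of 19.8 to 64.3%, against 23.9% over the whole p63 list. Both background shares lay within the intervals of the pair. Of these 6 regions, 4 had no CTR peak, where 7459 of 14931 p63-only regions in the genome had none. The contrast between p63-only and CTR-only counts depended on the threshold, since with all deposited peaks the pair had 6 CTR-only and 5 p63-only regions. Their windows overlap, and 3 CTR and 4 p63 peaks counted for both genes.

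Neither gene had a peak of any strength within 3 kb of its canonical TSS, the start of the transcript that GENCODE names as canonical. The nearest peak to the CDH1 TSS lay 5.19 kb upstream in CTR and 5.08 kb upstream in p63, with a pileup of 11 reads in each. The nearest to the CDH3 TSS lay 4.23 kb upstream in CTR, with 16 reads, and 4.16 kb upstream in p63, with 19 reads. At this depth, then, opening of either canonical promoter was not detected in either group. Near an upstream CDH3 start, 8.91 kb before the canonical TSS in CTR and 9.01 kb before it in p63, weak peaks of 12 and 6 reads were listed, both below the threshold.

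The p63-only region of highest −log10 q at CDH3 (40.4) lay upstream of the gene at 68605677 to 68606139, in no annotated gene, 39.4 kb from the canonical TSS and 30287 bp from the nearest CDH3 start. Its pileup was 40 reads (exact Poisson 95% interval 28.6 to 54.5) over a local background of 1.45 reads, and CTR had no peak there. This is the region that holds the family site printed above, at 68605862 to 68605881, centred 30 bp from the summit. A further p63-only region, at 68640857 to 68641467, was the peak 4.16 kb upstream of the canonical TSS. Its 19 reads stood against 16 reads in CTR, a ratio of 1.19 (exact interval 0.578 to 2.47), so it passed the threshold in 1 list and missed it in the other without a difference beyond counting error.

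In the 3′ part of the CDH3 locus, which the CDH1 window also covers, a region at 68707215 to 68708000 had 54 reads (40.6 to 70.5) in p63 and 12 reads in a CTR peak with a −log10 q of 3.89. The ratio of 4.50 had an interval of 2.38 to 9.24, but the summits differed, at 68707445 in p63 and 68707824 in CTR. It therefore did not compare reads at 1 position. The region lay 29.8 kb upstream of the canonical CDH1 TSS, and its best match to the family site had 5 mismatches. A second region nearby, at 68715455 to 68715754, 21.7 kb upstream of CDH1, had 26 reads in p63 (17.0 to 38.1) and no CTR peak.

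Within CDH1, intron 2 held a p63-only region at 68786567 to 68787096 with 18 reads and no CTR peak, 49.5 kb into the gene. The fourth p63-only region of the CDH1 window, at 68871678 to 68871975, lay beyond the gene in TANGO6 and had 22 reads. No p63-only region of CDH1 held the family site.

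Of the 9 shared regions of the pair, 6 had a higher pileup in p63 and 3 a lower one. Over all 47181 pairs in the genome, 49.9% had a higher pileup in p63 and 45.3% a lower one. Both regions whose interval lay above 1 were in CDH3 intron 2. At 68658281 to 68659045 the pileup was 54 reads in CTR and 98 reads in p63, a ratio of 1.81 (1.29 to 2.58), the strongest upward shift among all shared member regions. At 68668226 to 68668791 it was 37 reads in CTR and 58 reads in p63, a ratio of 1.57 (1.02 to 2.44). The remaining 2 shared regions of the CDH3 window had ratios of 1.06 and 1.07, so all 4 were above 1.

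CDH1 showed no single direction among its 6 shared regions, of which 3 were higher and 3 lower in p63. In intron 2, at 68760750 to 68761199 and 2236 bp from an internal CDH1 start, the pileup was 16 reads in CTR and 28 reads in p63, a ratio of 1.75 (0.915 to 3.46) whose interval includes 1. Near another internal start, over exon 13, a coding exon, the pileup at 68823213 to 68823888 was 34 reads in CTR and 28 reads in p63 (0.824, 0.481 to 1.40). The remaining internal starts with open chromatin, at 68800387 to 68800708 in intron 2 and 68802188 to 68802613 in intron 3, had 25 and 28 reads in CTR and 24 reads each in p63. The shared region of highest −log10 q in the window, at 68843262 to 68844314, lay 8 bp from a TANGO6 start and had 57 reads in CTR and 65 reads in p63.

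**Figure D2:**
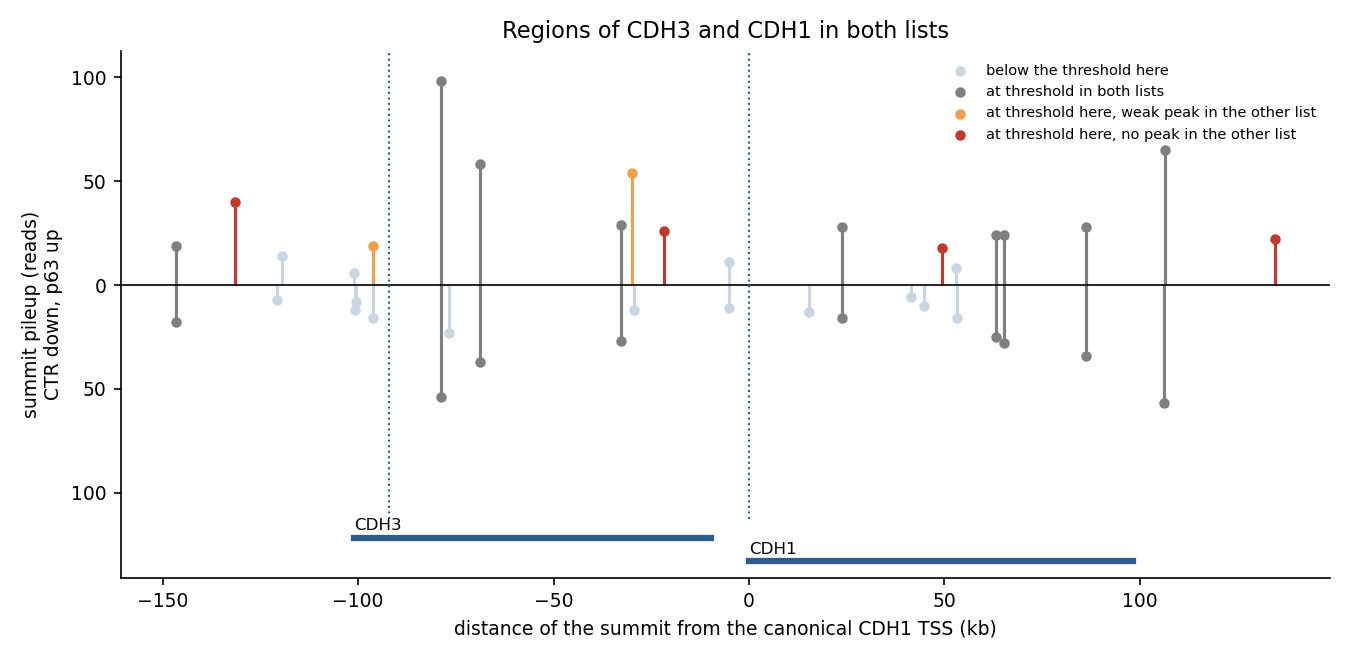
Summit pileup in reads (y axis, p63 list upwards and CTR list downwards) of every deposited peak of CDH3 and CDH1 against distance from the canonical CDH1 TSS in kb (x axis); dotted lines mark the canonical TSS of each gene and blue bars the gene bodies. The 4 p63-only regions in red have no line downwards, the 2 in orange stand over weak CTR peaks of 12 and 16 reads, both dotted lines stand free of peaks, and the tallest line is the shared region of CDH3 intron 2 with 98 reads in p63 and 54 in CTR.

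The mesenchymal pair lie on separate chromosomes. CDH2 (ENSG00000170558.10, chromosome 18, 27932879 to 28177946, minus strand) and CDH11 (ENSG00000140937.14, chromosome 16, 64943753 to 65126112, minus strand) had 14 open regions in CTR and 15 in p63. Of these, 10 were shared, 4 were CTR-only (28.6%, 11.7 to 54.6%) and 5 were p63-only (33.3%, 15.2 to 58.3%). The background shares, 16.5% for CTR-only and 23.9% for p63-only, lay within these intervals. The intervals of the p63-only shares of both pairs overlapped widely, and the CTR-only share of CDH1 and CDH3 reached into that of CDH2 and CDH11. All 4 CTR-only regions kept a weaker peak in p63, where 1864 of 9339 CTR-only regions in the genome had no p63 peak. Of the 5 p63-only regions 1 had no CTR peak, against 4 of 6 at CDH1 and CDH3 and 7459 of 14931 in the genome. Counts this small do not tell the pairs apart.

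In contrast to CDH1 and CDH3, both genes had an open canonical promoter in both groups. The CDH2 promoter, at 28176993 to 28178836, had 62 reads in CTR (47.5 to 79.5) and 59 reads in p63 (44.9 to 76.1), a ratio of 0.952. The CDH11 promoter, at 65122039 to 65123952, had 83 reads in CTR (66.1 to 103) and 65 reads in p63 (50.2 to 82.8), a ratio of 0.783 (0.557 to 1.10). Neither difference was larger than counting error.

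At CDH2, all 7 shared regions had a lower pileup in p63 than in CTR, with ratios from 0.639 to 0.952 and a median of 0.864, where 45.3% of all 47181 pairs in the genome had a ratio below 1. No single interval excluded 1. The lowest ratio was in intron 2, at 28065446 to 28065886, where the pileup was 36 reads in CTR and 23 reads in p63 (0.361 to 1.11). The shared CDH2 region of highest −log10 q, in the same intron at 28115029 to 28115533, had 58 reads in CTR and 42 reads in p63 (0.724, 0.475 to 1.10). Upstream of the gene, a region 6.68 kb from the canonical TSS had 40 reads in CTR and 28 reads in p63 (0.700, 0.416 to 1.16). The 2 CTR-only regions of CDH2, which are lower in p63 by the way they were called, were also in intron 2. The one printed above, at 28112105 to 28112412, had 32 reads in CTR and 20 reads in p63, and the other, at 28075431 to 28075954, had 17 and 10 reads. The single p63-only region of CDH2 lay in this intron too, at 28095016 to 28095421, with 31 reads in p63 and 14 reads in a CTR peak just below the threshold (−log10 q of 9.25, ratio 2.21, 1.14 to 4.50).

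CDH11 had 3 shared regions with ratios of 0.783, 0.878 and 1.24. Of these, the region at 65070693 to 65071245 in intron 1, 1198 bp from an internal start, had 41 reads in CTR and 36 reads in p63. Its 4 p63-only regions were all intronic. The one with no CTR peak, at 65083348 to 65083797 in intron 1, had 24 reads (15.4 to 35.7). The others had 24 reads against 14 at 64983947 to 64984359, 17 against 14 at 64964198 to 64964833 and 28 against 19 at 65069177 to 65069431, the last lying 2960 bp from an internal start, and each of these ratios had an interval that included 1. The 2 CTR-only regions, at 64952090 to 64952452 and 65044972 to 65045280, had 16 reads each in CTR and 12 and 14 reads in p63. In intron 1, the family site printed above for CDH11 lay under a p63 peak of 10 reads with a −log10 q of 5.40, at 65099431 to 65099846, which stayed below the threshold.

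**Figure D3:**
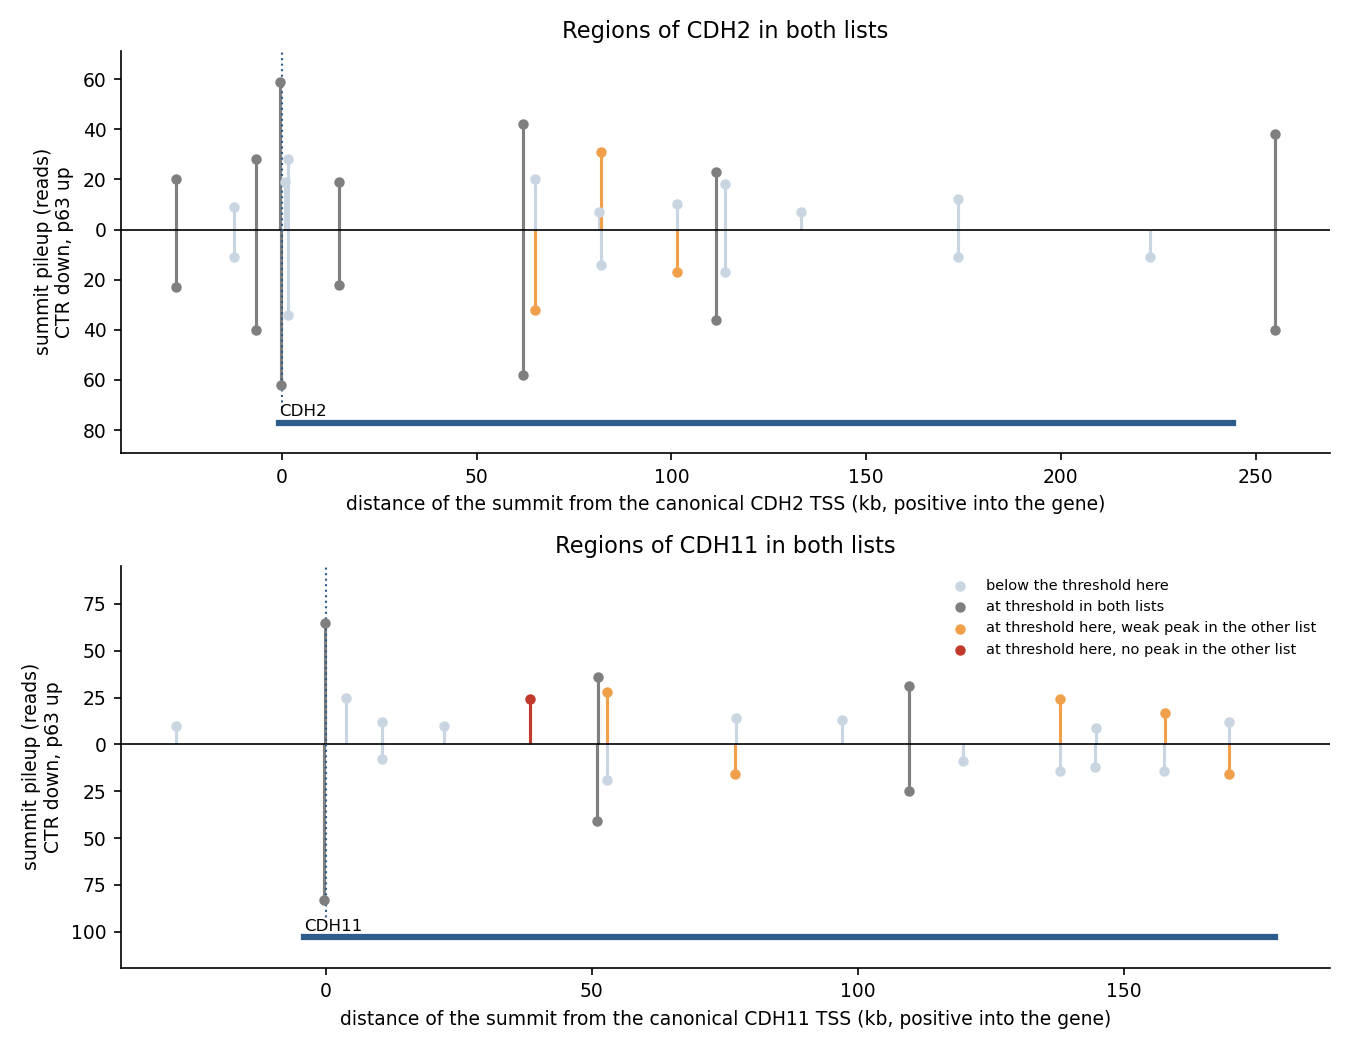
Summit pileup in reads (y axis, p63 upwards and CTR downwards) of every deposited peak of CDH2 (top) and CDH11 (bottom) against distance from the canonical TSS in kb (x axis, positive into the gene, blue bar). Tall shared lines stand at the TSS of both genes, 62 and 83 reads in CTR, and at each of the 7 shared regions of CDH2 the downward line is the longer.

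Across shared regions, the log2 ratio of p63 to CTR pileup was centred on the median over all 47181 pairs, which was 0.00. In the genome this shift had an SD of 0.39, the middle 95% of pairs lay between −0.70 and 0.89, 6.83% of pairs were more than 1.5-fold higher in p63 and 4.85% more than 1.5-fold lower. The median shift was 0.10 at CDH1 and CDH3 (9 regions, SD 0.43) and −0.21 at CDH2 and CDH11 (10 regions, SD 0.27). More than 1.5-fold higher were 3 of the 9 regions of the epithelial pair and none of the 10 of the mesenchymal pair, and more than 1.5-fold lower were 0 of 9 and 1 of 10. With fold enrichment in place of pileup, the median of CDH1 and CDH3 was −0.02 and that of CDH2 and CDH11 stayed at −0.21, so the sign at the epithelial pair was not settled by these lists. Taken by gene, the median was 0.38 at CDH3, 0.02 at CDH1, −0.21 at CDH2 and −0.19 at CDH11. CDH3 and CDH2 formed the ends of this order, and CDH13 and the 3 catenin genes lay between −0.09 and 0.08. Over all 65 shared member regions the median was −0.07, with 5 past 1.5-fold upwards and 6 downwards. Members lying beyond the middle 95% of the genome were limited to the region of CDH13 described next.

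**Figure D4:**
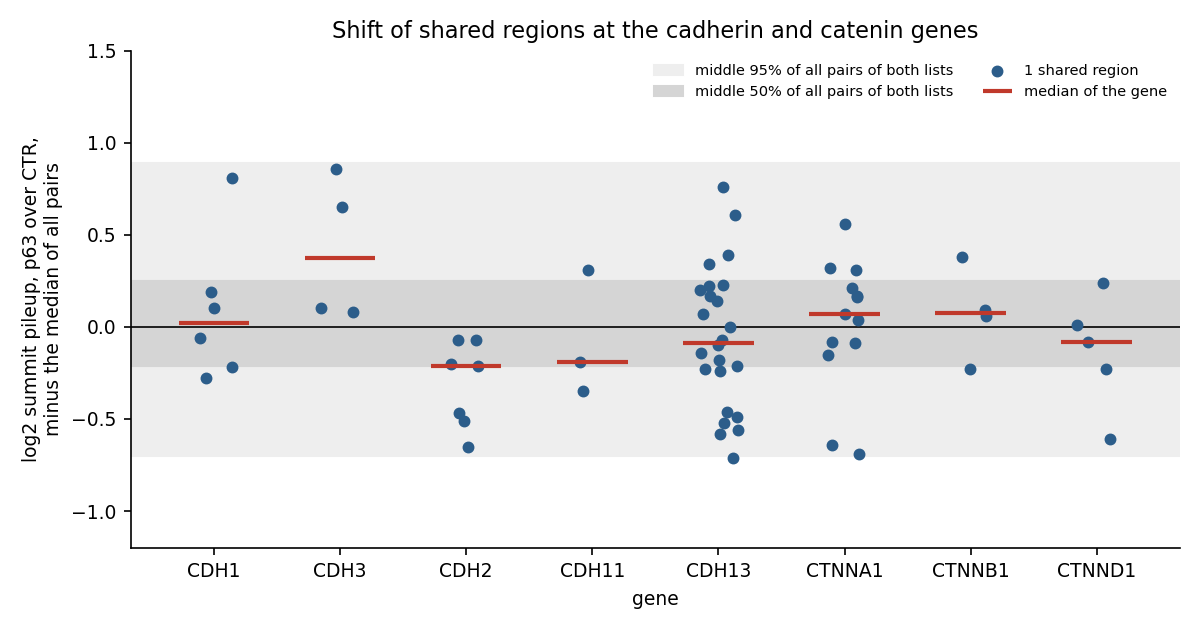
Log2 ratio of p63 to CTR summit pileup minus the median over all pairs (y axis) for each shared region (points) of the 8 genes (x axis), with the median per gene (red) and the middle 50% and 95% of all 47181 pairs (grey bands). All 7 CDH2 points lie below 0 and all 4 CDH3 points above 0, and nearly all points stay inside the wider band of −0.70 to 0.89.

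CDH13 (ENSG00000140945.17, chromosome 16, 82626965 to 83800640, plus strand) is the longest member, with a window of 1224 kb, and held 29 open CTR and 37 open p63 regions. Of these, 13 were p63-only (35.1%, 21.8 to 51.2%) and 5 CTR-only (17.2%, 7.60 to 34.5%), and 7 of the 13 had no CTR peak. The background shares of 23.9% and 16.5% lay within these intervals, and 7459 of 14931 p63-only regions in the genome had no CTR peak. An open region in intron 1, 2.73 kb from the canonical TSS at 82629548 to 82630366, had 65 reads in CTR and 85 reads in p63 (1.31, 0.936 to 1.83). The TSS itself was covered by no peak in either list. Near an internal start in intron 8, at 83653649 to 83654165, the pileup was 19 reads in CTR and 21 reads in p63.

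The strongest p63-only regions of CDH13 lay deep in the gene. The region of intron 6 printed above, at 83365151 to 83365540, had 48 reads (35.4 to 63.6) and a −log10 q of 46.1, the highest of all list-only member regions. In intron 7, at 83587985 to 83588507, a second had 48 reads and a −log10 q of 42.2. The third region without a CTR peak among the 5 of highest −log10 q, at 83508357 to 83508694 in intron 7, had 24 reads. The remaining 2 were at 82761143 to 82761468, with 25 reads against 10 in CTR, and at 83403666 to 83404362, with 26 against 14. None of the 13 held the family site.

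In the opposite direction, the CTR-only region of highest −log10 q at any member (25.2) was in CDH13 intron 1, at 82655428 to 82655692. It had 44 reads in CTR and 21 reads in p63, a ratio of 0.477 (0.270 to 0.820). The other 4 CTR-only regions of CDH13 had 20 reads against 14 in p63 at 82585723 to 82585959, 21 against 11 at 82699677 to 82700024, 23 against 18 at 83512968 to 83513516 and 19 against 14 at 83696725 to 83697392. Of the 14 CTR-only regions of all members, that of 44 reads was the only one whose ratio had an interval below 1. Of the 14 p63-only regions with a weak CTR peak, 4 had an interval above 1. List-only regions passed the threshold in 1 list only, so their ratios lean that way by the way they were called. These intervals are therefore no test of a difference.

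Among its 24 shared regions, 13 were lower and 10 higher in p63, where 45.3% of all pairs in the genome were lower and 49.9% higher. The lowest shift of any shared member region (−0.71) was at 83717839 to 83718314 in intron 10, with 41 reads in CTR and 25 reads in p63 (0.610, 0.355 to 1.03). The shared region of highest −log10 q in CTR (48.0), at 83689440 to 83689929 in the same intron, had 54 reads in CTR and 49 reads in p63. At 83533097 to 83533668 in intron 7 the pileup was 39 reads in CTR and 66 reads in p63 (1.69, 1.12 to 2.58). CDH13 thus combined regions of both directions.

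**Figure D5:**
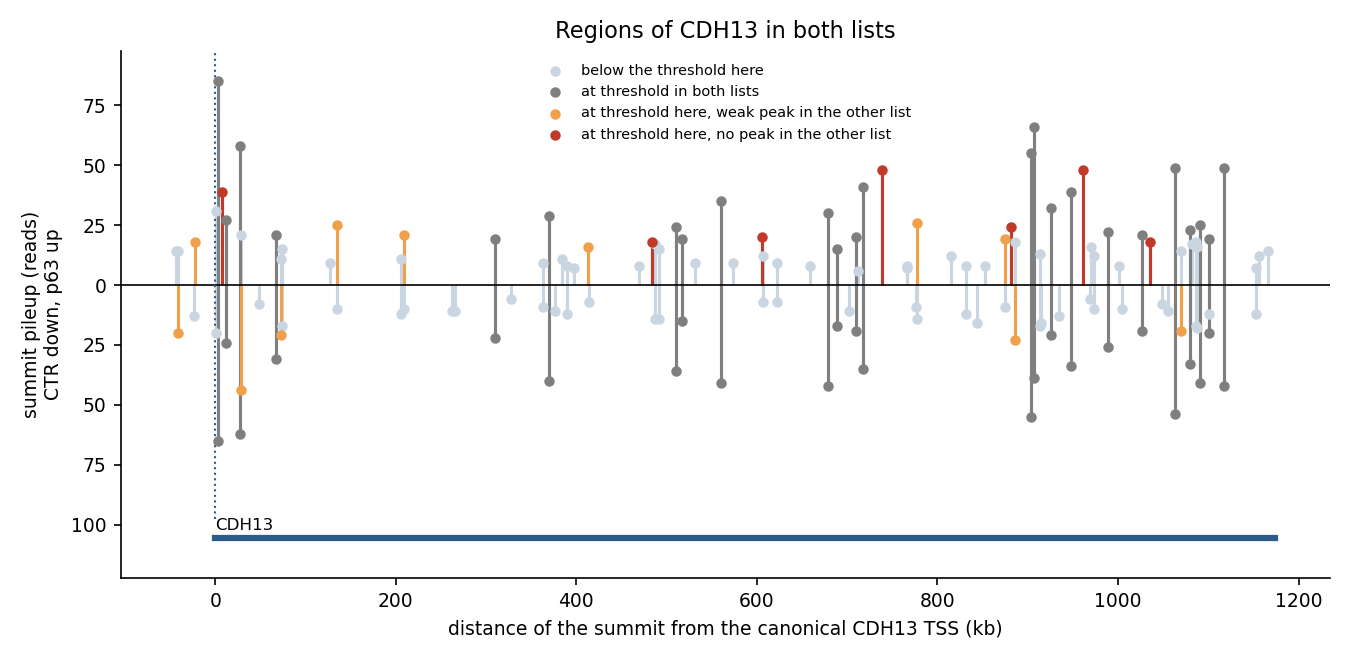
Summit pileup in reads (y axis, p63 upwards and CTR downwards) of every deposited peak of CDH13 against distance from its canonical TSS in kb (x axis, blue bar for the gene body). The p63-only regions without a CTR peak (red) are spread along the gene, the tallest with 48 reads at 738 and 961 kb, and a CTR-only region of 44 reads stands 28.6 kb from the TSS.

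The catenin genes, whose products all classical cadherins share, had 27 open regions in CTR and 26 in p63, with 5 CTR-only (18.5%, 8.18 to 36.7%) and 4 p63-only (15.4%, 6.15 to 33.5%). Both intervals held the background shares of 16.5% and 23.9%. The promoters of the catenin genes were open in both groups, with summit pileups whose ratios had intervals that included 1. The CTNNA1 promoter had 57 reads in CTR and 64 reads in p63 (1.12, 0.773 to 1.63). Its summits differed, at 138753430 in CTR and 138754291 in p63, so this ratio did not compare reads at 1 position. The CTNNB1 promoter had 64 and 68 reads (1.06, 0.744 to 1.52), and the CTNND1 promoter had 55 and 47 reads (0.855, 0.566 to 1.28).

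CTNND1 (ENSG00000198561.16, chromosome 11, 57753243 to 57819546, plus strand) had no CTR-only and 1 p63-only region. The latter, at 57788449 to 57788763 in intron 1 and 26.7 kb from the canonical TSS, had 25 reads (16.2 to 36.9), a −log10 q of 20.1 and no CTR peak. It holds the family site printed above, at 57788573 to 57788592, centred 48 bp from the summit. In the same intron, a shared region at 57778138 to 57779126 had 64 reads in CTR and 42 reads in p63 (0.656), the only shared member region whose interval (0.434 to 0.984) lay below 1. It was 2862 bp from an internal start. The other open internal start, in intron 6, had 39 reads in CTR and 37 reads in p63, and the shared region of highest −log10 q in the window, 178 bp from a MED19 start, had 124 and 125 reads.

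CTNNA1 (ENSG00000044115.21, chromosome 5, 138610967 to 138935034, plus strand) had 3 regions in each direction. A p63-only pair lay near upstream starts of the gene, 90.3 and 88.6 kb before the canonical TSS. At 138662760 to 138663318 the pileup was 33 reads in p63 and 10 reads in CTR, a ratio of 3.30 (1.59 to 7.51). The summits differed there, at 138663134 in p63 and 138662783 in CTR. At 138664666 to 138665028 the pileup was 35 reads in p63 (24.4 to 48.7) with no CTR peak. The p63 summits of this pair were 703 and 949 bp from a CTNNA1 start, so that alternative starts of this gene, and not its canonical promoter, held list-only regions. The third p63-only region, at 138981284 to 138981712, lay in SIL1 and had 17 reads against 12.

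The CTR-only regions of CTNNA1 had 18 reads against 10 in p63 at 138789667 to 138790153 in intron 3 and 18 against 13 at 138921547 to 138921832 in intron 11, 1066 and 2894 bp from internal starts. The third, at 138953489 to 138953762, had 15 reads and no p63 peak and lay 107 bp from a SIL1 start. Shared regions near other starts of the gene had 17 reads in CTR and 25 reads in p63 at 138609544 to 138609929, 30 and 27 reads at 138874936 to 138875643, and 29 and 18 reads at 138905541 to 138905921, where the shift of −0.69 was the second lowest of all members. The shared region of highest −log10 q in the window, in HSPA9, had 109 and 112 reads.

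CTNNB1 (ENSG00000168036.18, chromosome 3, 41194741 to 41260096, plus strand) had 2 CTR-only regions and no p63-only region. They had 16 reads each in CTR, against 12 in p63 at 41188177 to 41188727 upstream of the gene and 14 at 41223956 to 41224632 in intron 2, 272 bp from an internal start. Of its 4 shared regions, with ratios from 0.855 to 1.30, 3 were higher in p63, where 49.9% of all pairs in the genome were. The one of highest −log10 q in CTR lay in ULK4, at 41267945 to 41268526, with 62 and 53 reads.

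Sites of the p53/p63 family were thus found at 2 of the 28 p63-only member regions, 7.14%, where 11.4% of all 14931 p63-only regions in the genome held one. Among all p63 regions the share depended on class, with 18.8% of those absent from CTR, 3.95% of those with a weak CTR peak and 1.39% of shared regions holding a site. At the 8 genes, both sites were in the class absent from CTR, 2 of 14 regions, and none was in a shared region or in any CTR region. The AP-1 motif TGANTCA was held within 100 bp of the summit, on either strand, by 39 of the 93 open p63 regions (41.9%) and 36 of the 79 CTR regions (45.6%), against 32.5% and 34.2% over all open regions of these lists. The TEAD motif CATTCC was held by 25 (26.9%) and 22 (27.8%), against 18.3% and 19.0%. The KLF motif GGGNGNGGC was held by 4 p63 regions and 6 CTR regions (7.59%), against 13.7% and 13.5%. The E-box CAGGTG, a letter string that zinc finger repressors of CDH1 are known to bind, was held by 4 and 2 (2.53%), against 6244 of 62343 and 8.54%. Of the 28 p63-only regions, 12 held the AP-1, 7 the TEAD, 1 the KLF and 2 the E-box motif. The shares of these motifs over all p63-only regions of the genome were not computed. The shares over all open regions are of another class, so these counts have no background here. The AP-1, TEAD, KLF and E-box shares carry no interval, and member regions were not matched to all open regions by distance from a TSS. All of these are matches of letters in a window and not measured binding.

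Other genes of the adherens junction gave the surroundings of these results, from a list of 28 that comprised further cadherins, catenins, nectins and linker proteins. A p63-only region was present at 16 of the 28 and at 7 of the 8 members, where 58.2% of all protein-coding genes had one. A CTR-only region was present at 13 of the 28 and at 5 of the 8 members, against 41.9%. These shares of genes were not matched for window length, which ran from 143 to 1224 kb at the members. The promoter was open in both lists at 13 genes of the list, in neither at 14, and in p63 only at 1, NECTIN4, a nectin of epithelia. All 3 p63-only regions of NECTIN4, that of the promoter among them, overlapped a weaker CTR peak. Its promoter thus passed the threshold in 1 list and had a peak below it in the other. The most p63-only regions were found at CDH5, the cadherin of endothelium, with 8, of which 6 had no CTR peak. CDH22 followed with 5 and NECTIN1 with 4, and then ARVCF, NECTIN2 and NECTIN4 with 3 each. CTR-only regions were most numerous at NECTIN2 with 4 and PKP4, a p120-related protein, with 3, followed by CDH20, NECTIN1 and NECTIN3 with 2 each. Plakoglobin (JUP), the close relative of β-catenin, had 9 open regions in each list and all were shared.

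Likeness between genes was measured as the sum of absolute differences in their shares of p63-only, CTR-only and shared regions, over the 25 genes with at least 5 regions. Nearest to CDH1 were NECTIN4 (0.13), with 3 p63-only, 0 CTR-only and 6 shared regions, and CDH3 (0.20). Nearest to CDH3 were CDH1 (0.20) and NECTIN4 (0.33), and part of the likeness of CDH1 and CDH3 comes from the regions that both windows hold. Nearest to CDH2 were CTNNA1 (0.12) and CTNNA2 (0.15), and nearest to CDH11 were NECTIN1 (0.17) and NECTIN2 (0.39).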

How the data were processed

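ATAC-seq was performed in BJ cells expressing KLF4 alone or ΔNp63α and KLF4, with 2 samples per group by their labels. The authors mapped reads to hg38 with Bowtie2 2.3.4.3 and ran MACS2 on the replicates of each group to give 1 list, per the submitters' processing notes and the study's methods. The MACS2 version and options, the handling of duplicate reads and the shift of reads for the transposase were not given in the sources used here. Each deposited peak had a score, which was 10 times its −log10 q cut to a whole number in at least 99.99% of each list, a fold enrichment over local background, the −log10 of its p-value and of its q-value, and the position of its summit. Values per replicate were not used here.

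The summit pileup was solved from the deposited fold enrichment, taken as (pileup + 1) over (background + 1), and −log10 p. It was not scaled between lists, whose median pair ratio was 1.00. Each pileup was taken at the summit of its own peak, so both values of a ratio can come from different positions. Peaks on chromosomes 1 to 22, X and Y were assigned to genes of GENCODE release 44, and coordinates are 1-based. The threshold was the one the study used for these lists. Shares have 95% Wilson intervals, pileups exact Poisson intervals and ratios exact binomial intervals, which cover counting error only, since reads are not independent molecules. Sequence was read with pysam 0.24.0, and overlaps, pileups and site calls were tested on simulated data. Regions were named by a rule covering regions within 3 kb of a member TSS, list-only regions (for over 8 in 1 direction, the 5 of highest −log10 q), the strongest and most shifted shared regions and those with a family site. The members and lists were chosen with earlier results of these data known. Alternatives were other thresholds, overlaps, windows, mismatch limits and fold enrichment.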

Additional observations from a re-analysis of the deposited data

How the results depend on the processing

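List-only counts at the 8 genes and at both cadherin pairs, the median shifts of both pairs and the site count were recomputed under the alternatives, 64 values in all, of which 47 stayed within 1.5-fold of the count or 0.1 of the log2 median, 16 moved further and 1 changed sign. The 1 that changed sign was the median shift at CDH1 and CDH3, which was −0.02 with fold enrichment and moved to 0.38 at a −log10 q of 20. That of CDH2 and CDH11 stayed between −0.28 and −0.20. With all deposited peaks, p63-only regions numbered 48 and CTR-only regions 34 at the 8 genes, 8 and 2 at CDH2 and CDH11, and at CDH1 and CDH3 CTR-only regions numbered 6 against 5 p63-only. At a −log10 q of 20 the 8 genes had 18 p63-only and 9 CTR-only regions, and CDH2 and CDH11 had 3 and 1. With absence from the other list at any −log10 q required, the count was 14 p63-only and 1 CTR-only regions at the 8 genes, and 1 and 0 at CDH2 and CDH11. Without the gene body, 18 p63-only regions remained within 50 kb of a TSS. At most 4 mismatches gave 5 p63-only regions with a family site. The cause of these moves was not tested. The p63-only count at CDH1 and CDH3 stayed between 4 and 6.

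No paired analysis was possible because the deposited lists hold no value per replicate, and leaving out each replicate was not run for the same reason. No region with fewer than 15 reads at its summit reached the threshold in either list, and none with fewer than 6 was listed. Whether the CDH1 and CDH3 promoters had no peak because they were closed or because of this limit of detection was not tested.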
